A study of Mus musculus with 12 samples.

Results

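The anterior Hoxd genes are the 4 genes Hoxd8, Hoxd3, Hoxd4 and Hoxd1, which lie beside the Hoxd9, Hoxd10 and Hoxd11 genes mutated in this study. They were taken by gene symbol, and each was found once among the 31618 genes of the female files and once among the 31669 genes of the male files. RNA sequencing profiles came from reproductive tracts of mice on a CD1/129 background aged 3 to 7 months, with 1 library per tissue and genotype and RNA of 3 animals pooled in each. The females had been staged and were taken in diestrus. The 6 female libraries were the uterus of wild-type (WT), Hoxa9,10,11-/- (Hoxa-null), Hoxd9,10,11-/- (Hoxd-null), Hoxa9,10,11-/-d9,10,11+/- (compound Hoxa-null) and Hoxa9,10,11+/-d9,10,11-/- (compound Hoxd-null) mice, and the WT oviduct. The 6 male libraries were vasa deferentia with each of these 5 genotypes, and the caudal epididymis of WT males. The labels do not state what kind of mutation the alleles carry. Because each group is 1 pooled library, no test across replicates was possible and no p-value is given.

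Hox genes encode homeodomain transcription factors that give cells along the body axis their regional identity. In the mouse they stand in 4 clusters, and within a cluster the genes at the anterior end are generally switched on earlier and reach further toward the head than those at the posterior end. The posterior genes, among them the mutated block, are known for patterning the ducts from which oviduct, uterus, epididymis and vas deferens form. Hoxd8, Hoxd3, Hoxd4 and Hoxd1 are better known for the vertebral column, the hindbrain and sensory neurons, and genes of the Hoxd cluster share regulatory landscapes on both sides of it, so a gene beside a mutated one can in principle respond to changes in its neighbour.

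The genes are ordered here by their starts on chromosome 2 in the mm9 coordinates of the files. Hoxd8 (gene ID 15437) starts 7.73 kb beyond the start of Hoxd9, Hoxd3 (15434) 14.2 kb beyond it, Hoxd4 (15436) 24.2 kb and Hoxd1 (15429) 65.2 kb. The next protein-coding gene of another family, Mtx2, encoding a mitochondrial outer membrane protein, starts at 128 kb. Between them the files list 1700109F18Rik at 12.3 kb, named Hoxd3os1 in RefSeq, and Gm14424 at 54.9 kb. Several of these genes overlap. In the RefSeq annotation of GRCm38.p6, Hoxd4 and Mir10b lie within the span of Hoxd3, Hoxd3os1 overlaps Hoxd3, the predicted gene Gm38462 spans Hoxd8, and Gm14424 lies within Haglr. The order of the starts thus does not place all of Hoxd3 nearer the mutated block than Hoxd4. How reads in overlapping genes were assigned, and whether strand was used, is not given in the sources used here, so part of the RNA credited to one of these genes may belong to its partner.

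The upstream sequence of all 4 genes is shown because neighbouring genes are compared here, 3 of them transcribed and 1 nearly silent. Each is the 250 bases before the RefSeq start in GRCm38.p6, plus strand, written 5′ to 3′: Hoxd8 at chr2:74704365-74704614, Hoxd3 at chr2:74711743-74711992, Hoxd4 at chr2:74721728-74721977 and Hoxd1 at chr2:74762730-74762979. Capitals mark a match to TTTATGG, a core that posterior Hox proteins are known to favour.
Hoxd8: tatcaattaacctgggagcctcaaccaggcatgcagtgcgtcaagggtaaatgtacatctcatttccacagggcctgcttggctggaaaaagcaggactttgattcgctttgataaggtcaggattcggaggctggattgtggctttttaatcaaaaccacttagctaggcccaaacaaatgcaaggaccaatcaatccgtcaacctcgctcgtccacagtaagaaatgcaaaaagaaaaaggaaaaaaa
Hoxd3: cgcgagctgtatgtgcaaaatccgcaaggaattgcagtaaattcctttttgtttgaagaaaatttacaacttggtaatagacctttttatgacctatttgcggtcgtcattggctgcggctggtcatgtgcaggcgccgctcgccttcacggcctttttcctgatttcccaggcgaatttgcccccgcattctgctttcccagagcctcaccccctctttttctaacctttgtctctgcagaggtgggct
Hoxd4: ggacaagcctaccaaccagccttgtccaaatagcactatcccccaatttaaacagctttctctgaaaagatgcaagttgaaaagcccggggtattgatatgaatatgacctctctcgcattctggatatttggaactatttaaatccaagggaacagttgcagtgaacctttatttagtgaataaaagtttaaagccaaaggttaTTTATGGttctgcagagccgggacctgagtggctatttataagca
Hoxd1: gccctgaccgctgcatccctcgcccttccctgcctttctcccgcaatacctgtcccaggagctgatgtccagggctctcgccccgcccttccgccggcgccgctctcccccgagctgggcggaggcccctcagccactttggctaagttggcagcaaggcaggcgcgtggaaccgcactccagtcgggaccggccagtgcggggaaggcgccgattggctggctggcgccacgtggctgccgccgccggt

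The windows differed in base composition. The Hoxd1 window held 71.6% G and C with 24 CpG dinucleotides, above the upper quartile of 61.2% over 32851 RefSeq promoter windows of 300 bases. The Hoxd3 window held 49.2% with 12 CpG, Hoxd8 44.4% with 6 and Hoxd4 40.4% with 3, all below the median of 52.4%. On both strands TTTATGG matched once in the Hoxd4 window shown and in none of the other 3. The 300-base Hoxd4 window of RefSeq, which adds 50 bases after the start, held 2 matches, and 2.75% of all windows held at least 1. TGATNNAT, a pattern known for joint binding of Hox and Pbx proteins, matched none of the 4, with a match in 8.85% of all windows.

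The deposited values are log2 values centred for each gene on the median of its 6 libraries, so they give differences within a set and no level across genes or sexes. Hoxd8, Hoxd3 and Hoxd4 were measured in both sets, along with 16629 female and 16764 male genes in all. Hoxd1 was not, since no library of either set reached 20 normalised reads for it. The rounding of the values fitted levels of 256 normalised reads or more in all 6 libraries for Hoxd8 and Hoxd3 in both sets and for Hoxd4 in the male set. A fit does not prove such a level. Single values known to lie from 16 to below 256 also fitted in 64 of 140 female and 43 of 86 male cases. At 256 normalised reads or more the counting SD of 1 library is at most 0.105 log2 units. A difference of 2 libraries then passes 2 counting SDs above 0.28 in the female set and above 0.30 in the male. These are upper bounds, so a smaller difference may also pass at the true level, which could not be read. In the female set Hoxd4 lay below 324 normalised reads in every library and below 256 in the Hoxd-null uterus and the oviduct, and its counting error there was not bounded. Counting error leaves out the differences between animals, and in bulk tissue fewer cells of a type and less RNA per cell cannot be told apart.

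Depth differed by 1.34-fold among the female and 1.92-fold among the male libraries, the WT vas deferens being the deepest male library. Per the file headers, lane 1 of a run held the Hoxa-null uterus with both WT tissues, uterus and vas deferens, and the other 3 uteri and 3 of the 4 mutant vasa shared lane 2. The compound Hoxd-null vas deferens, the oviduct and the epididymis were sequenced in another run. The WT vas deferens thus shared a lane with none of the mutant vasa, and the WT uterus shared one with the Hoxa-null uterus alone among the mutant uteri. In every comparison across lanes or runs, genotype or tissue and sequencing lane cannot be told apart. Of the tissue markers, Ovgp1, the oviduct's secreted glycoprotein, was 5.14 log2 units higher in the oviduct than in the WT uterus, and the epididymal gene Adam7 was 6.02 higher in the epididymis than in the WT vas deferens. Other markers went against the labelled tissue. Prss28, a protease gene of the uterine glands, differed from the WT vas deferens by -3.47 in the Hoxa-null library and by -4.93 to -4.94 in the other 4 male libraries, so that the WT vas deferens held the most of it. Prss28 was also highest in the WT uterus, from which the 4 mutant uteri differed by -8.00 to -12.8 and the oviduct by -10.4. The epididymal gene Crisp1 was measured in the uterus set, where it differed from the WT uterus by -2.19 in the Hoxa-null uterus and -7.16 in the oviduct. Both WT libraries are references below, and the part of this in the members' values was not tested. Of the mutated genes, Hoxa11 differed from WT by -2.74 and -3.11 in both Hoxa-null uteri, and by -2.30 and -3.21 in both Hoxa-null vasa. Hoxd9 differed from WT by -1.28 in the Hoxd-null vas deferens and by -1.21 in its compound counterpart. In the same 2 libraries Hoxd10 differed by -0.27 and 0.49. Hoxd11 differed by -2.47 and -1.18 there, but also by -0.89 and -1.46 in the single and compound Hoxa-null vasa. In the uterus RNA of the mutated Hoxd genes did not mark the Hoxd-null libraries, which are named here as labelled: Hoxd9 lay 0.0050 below WT in the single mutant and 0.25 below in the compound one, and Hoxd10 lay above WT in both.

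**Figure D1:**
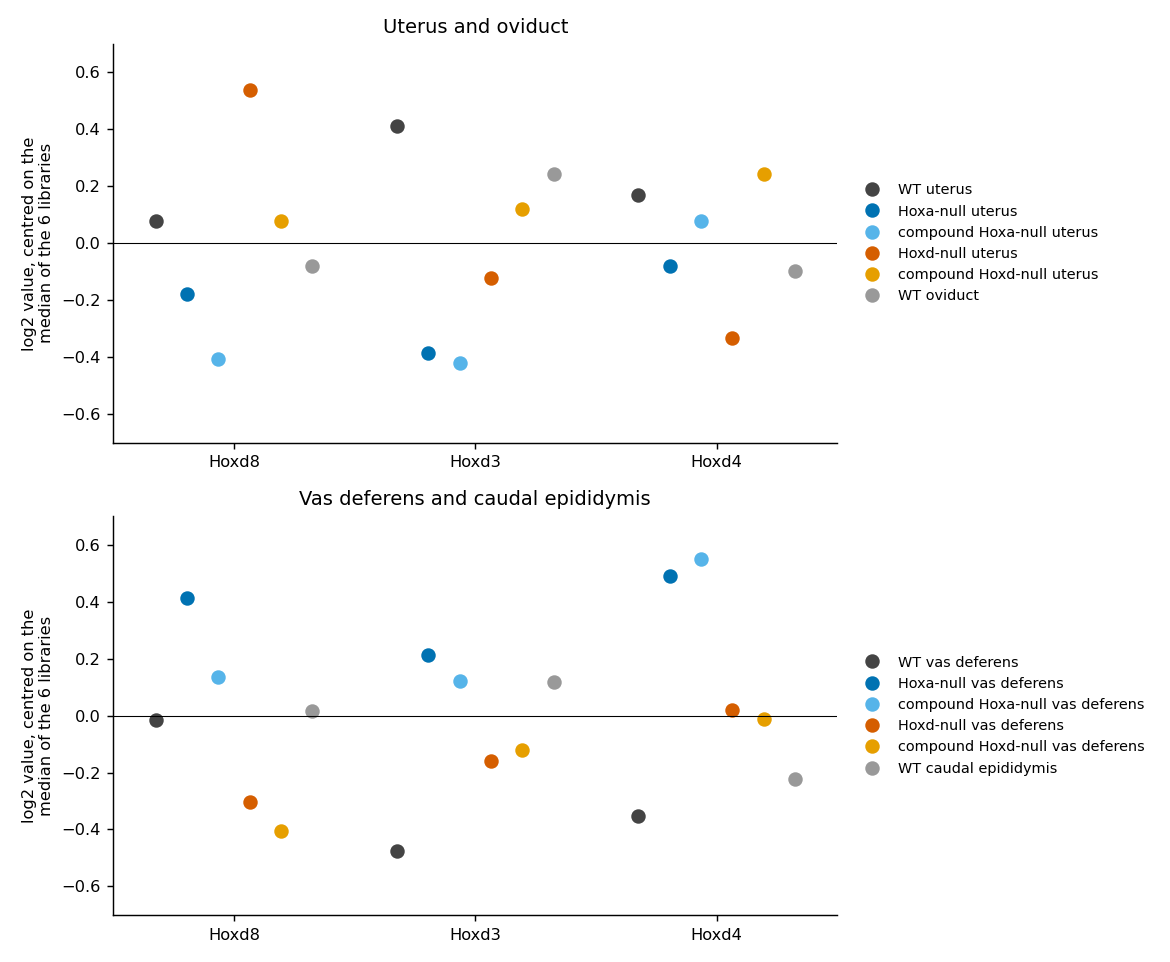
Log2 value of Hoxd8, Hoxd3 and Hoxd4 in each of the 6 female libraries (upper panel) and the 6 male libraries (lower panel), each gene centred on the median of its set; 1 point is 1 pooled library. For Hoxd8 and Hoxd3 the blue Hoxa-null points lie below the orange Hoxd-null points in the uterus, and for all 3 genes above them in the vas deferens.

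Hoxd8, the member nearest the mutated block, encodes a group 8 protein of the trunk region. Its log2 value was 0.079 in the WT uterus, -0.18 in the Hoxa-null, 0.54 in the Hoxd-null, -0.41 in the compound Hoxa-null uterus and 0.078 in the compound Hoxd-null one, and -0.078 in the oviduct. The Hoxd-null uterus stood highest, 0.46 above the WT uterus in second place. This was the only step between neighbours in the female order above the 0.28 bound for 2 counting SDs. The range over the 6 libraries was 1.92-fold. In the male set the values were -0.016 in the WT vas deferens, 0.41 in the Hoxa-null, -0.30 in the Hoxd-null, 0.13 in the compound Hoxa-null and -0.41 in the compound Hoxd-null vas deferens, and 0.017 in the epididymis. Here both Hoxd-null libraries stood lowest and both Hoxa-null libraries highest, with WT and epididymis between them. No step between neighbours in that order exceeded the 0.30 bound for 2 counting SDs, and the range was 1.77-fold.

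Hoxd3, which acts in the cervical vertebrae with its group 3 paralogs, had a value of 0.41 in the WT uterus, -0.38 in the Hoxa-null, -0.12 in the Hoxd-null, -0.42 in the compound Hoxa-null uterus and 0.12 in the compound Hoxd-null one, and 0.24 in the oviduct. The WT uterus was highest and the Hoxa-null uteri were lowest. The range was 1.78-fold, and no step between neighbours exceeded the 0.28 bound for 2 counting SDs. In the male set the order began from the other end, with -0.47 in the WT vas deferens, 0.21 in the Hoxa-null, -0.16 in the Hoxd-null, 0.12 in the compound Hoxa-null and -0.12 in the compound Hoxd-null vas deferens, and 0.12 in the epididymis. The WT vas deferens stood 0.31 below its nearest neighbour, the Hoxd-null vas deferens, a step that passed 2 counting SDs. The range was 1.61-fold.

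Hoxd4, a group 4 gene of the hindbrain and the neck vertebrae known as a target of retinoic acid, varied least in the female set. Its value was 0.17 in the WT uterus, -0.080 in the Hoxa-null, -0.33 in the Hoxd-null, 0.079 in the compound Hoxa-null uterus and 0.24 in the compound Hoxd-null one, and -0.099 in the oviduct. The extremes were the Hoxd-null and the compound Hoxd-null uterus, which carry the same 2 mutant Hoxd copies, and the range was 1.49-fold. The male values were -0.35 in the WT vas deferens, 0.49 in the Hoxa-null, 0.018 in the Hoxd-null, 0.55 in the compound Hoxa-null and -0.011 in the compound Hoxd-null vas deferens, and -0.22 in the epididymis. Both Hoxa-null vasa stood apart from the other 4 libraries by 0.47, which passed 2 counting SDs. The range was 1.87-fold.

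Hoxd1, farthest from the mutated block and known from spinal and sensory neurons, was close to silent. Because some libraries lay at the floor of 1 normalised read, its values could be read as counts. In the uterus all 5 libraries were at the floor, which means 0 reads in WT, Hoxd-null and compound Hoxa-null, where counting error allows up to 3 reads, and at most 1 read in Hoxa-null and compound Hoxd-null. The oviduct had 2 reads (95% exact Poisson interval 0.242 to 7.22, counting error only). In the male set the WT and Hoxd-null vasa were at the floor with at most 1 read. The Hoxa-null vas deferens had 6 reads (2.20 to 13.1), the compound Hoxa-null 7 (2.81 to 14.4), the compound Hoxd-null 1 (0.0253 to 5.57) and the epididymis 3 (0.619 to 8.77). The Hoxa-null vasa thus held most of the few Hoxd1 reads, with intervals that overlapped that of the compound Hoxd-null vas deferens. Gm14424, which precedes Hoxd1, was as sparse, with at most 8 reads in any library.

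**Figure D2:**
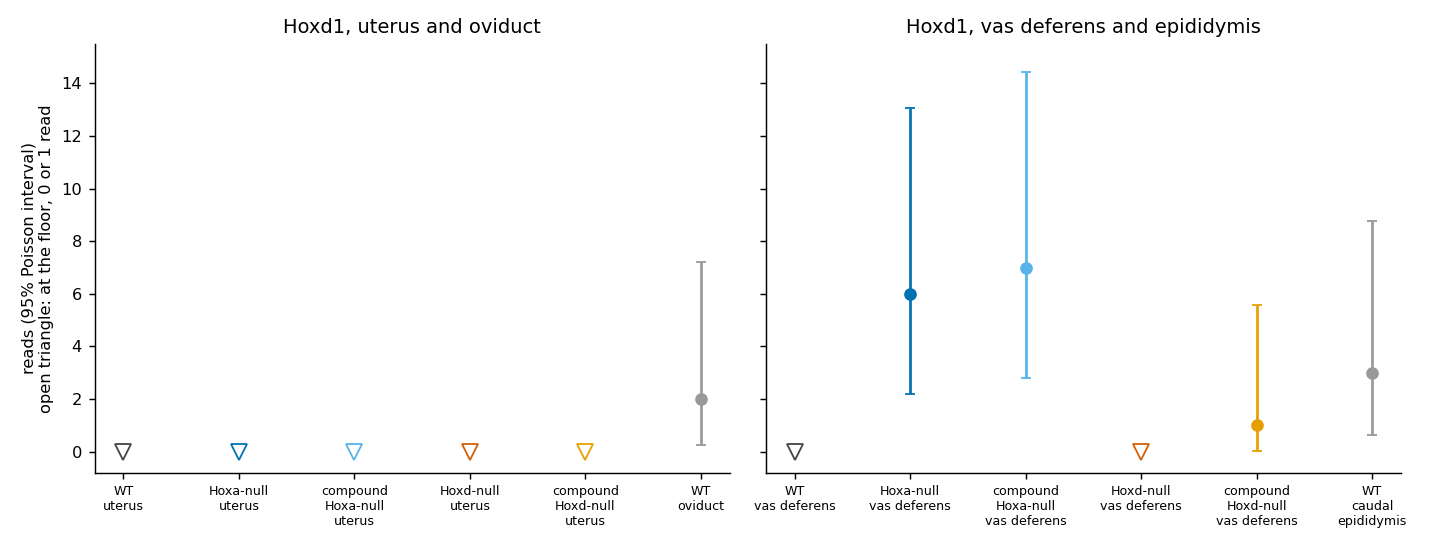
Hoxd1 reads per library with 95% exact Poisson intervals, for the 6 female (left) and 6 male (right) libraries; open triangles are libraries at the floor, where 0 or 1 read cannot always be separated. No library exceeds the 7 reads of the compound Hoxa-null vas deferens.

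The first comparison asked whether mutation of the Hoxd block in cis went with another level of its neighbours than mutation of the Hoxa block in trans. The 2 libraries with 2 mutant Hoxd copies were set against the 2 with 2 mutant Hoxa copies. The libraries of such a pair differ in the dose of the other cluster and are not replicates. In the uterus the Hoxd-null pair lay above the Hoxa-null pair by 0.60 for Hoxd8 and 0.40 for Hoxd3. It lay below by 0.04 for Hoxd4, where the pairs overlapped. The pairs of Hoxd8 and Hoxd3 were apart by 0.26 at their nearest libraries. Thus 2 of 3 measured members had the Hoxd-null pair wholly above, which 20.2% of all measured genes did, while 21.2% had it wholly below. The median difference of the 3 was 0.40, beside 0.00028 over all measured genes. Without the Hoxd-null uterus the difference was 0.37 for Hoxd8 and turned to 0.24 for Hoxd4. Without the compound Hoxd-null uterus it was -0.33 for Hoxd4, and without the compound Hoxa-null uterus 0.036.

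The order was the opposite in the vas deferens. The Hoxd-null pair lay below the Hoxa-null pair by 0.63 for Hoxd8, 0.31 for Hoxd3 and 0.52 for Hoxd4, without overlap in any of the 3, and the nearest libraries were 0.44, 0.24 and 0.47 apart. In all, 26.6% of measured genes had the Hoxd-null pair wholly below and 26.7% wholly above, so that separation in one direction or the other was common in this tissue. The median difference of the members was -0.52, beside -0.01 over all measured genes. Both patterns together, above in the uterus but below in the vas deferens, were seen for Hoxd8 and Hoxd3 among the 3 members and for 5.54% of the 15371 genes measured in both sets.

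Within lane 2 alone, which held the compound Hoxa-null uterus with both Hoxd-null uteri, the uterine differences were 0.71 for Hoxd8, 0.42 for Hoxd3 and -0.12 for Hoxd4. The lane held the Hoxd-null vas deferens with both Hoxa-null vasa, and the differences there were -0.58, -0.33 and -0.50. The directions were those of the full pairs for all 3 genes in both tissues. With the WT library in the place of the Hoxa-null pair the picture changed: in the uterus the mean of the Hoxd-null pair minus WT was 0.23 for Hoxd8, -0.41 for Hoxd3 and -0.22 for Hoxd4. The same difference in the vas deferens was -0.34 for Hoxd8, 0.33 for Hoxd3 and 0.36 for Hoxd4. For Hoxd8 the uterine value rests on the Hoxd-null library, since the compound Hoxd-null uterus lay 0.0013 below WT.

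The neighbours on either side did not all follow. 1700109F18Rik, a noncoding transcript, starts between the starts of Hoxd8 and Hoxd3 and overlaps Hoxd3 in RefSeq, so that reads may be shared. It had the Hoxd-null pair 0.57 above the other in the uterus and 0.56 below in the vas deferens, with no overlap of the pairs in either. Mtx2 showed 0.26 without overlap in the uterus and -0.24 with overlap in the vas deferens. Inside the mutated block, Hoxd9 differed by 0.11 in the uterus with overlap, and in the vas deferens by -1.41 without. Hoxd10 was higher in the Hoxd-null pair in both tissues, by 0.98 and 0.52, and Hoxd11 overlapped in both. Beyond the block, Hoxd12 and Hoxd13 were higher in the Hoxd-null pair of the vas deferens by 1.04 and 1.87, the reverse of the 3 anterior members there. From WT, Hoxd12 differed by -1.07 and -1.09 in the single and compound Hoxa-null vasa, and by -0.21 and 0.13 in the Hoxd-null ones. For Hoxd13 these differences were -1.69 and -1.60, and 0.15 and 0.29, so the Hoxa-null vasa were the ones away from WT. Both genes are covered by too few reads in the uterus to be measured.

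**Figure D3:**
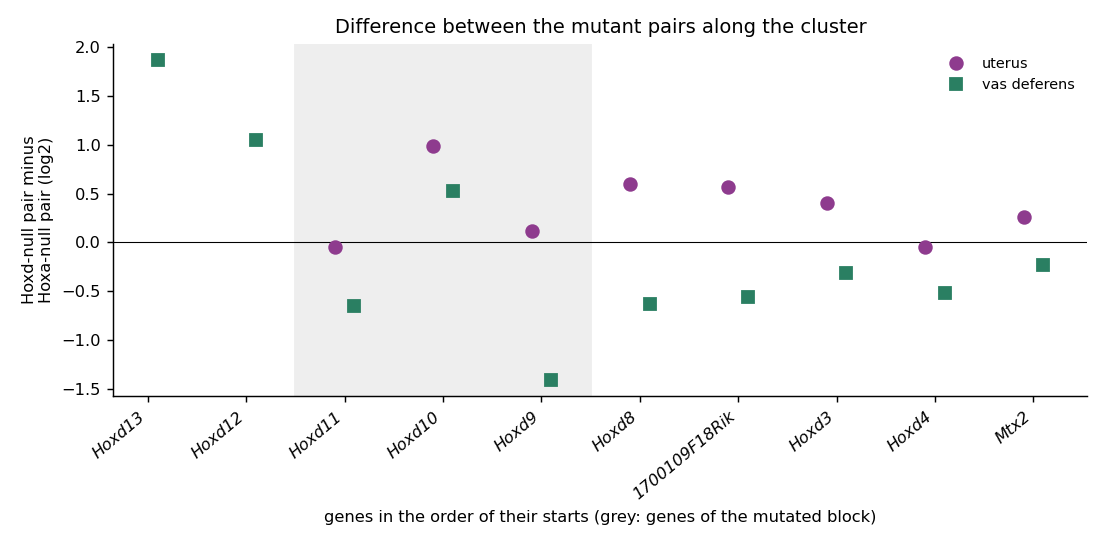
Difference of the mean log2 value of the Hoxd-null pair and the Hoxa-null pair for each measured gene of the region in the order of the gene starts, in uterus and vas deferens, with the mutated block shaded. Hoxd8, 1700109F18Rik and Hoxd3 are above 0 in the uterus and below 0 in the vas deferens, and Hoxd12 and Hoxd13 are above 0 in the vas deferens.

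Against WT none of the 3 measured members was 2-fold apart in any of the 4 mutants of either tissue. In the uterus this count of 0 stands beside the shares of all measured genes 2-fold apart, 13.1% for Hoxa-null, 11.8% for Hoxd-null, 15.3% for compound Hoxa-null and 14.1% for compound Hoxd-null. The corresponding shares for the vas deferens were 19.1%, 8.10%, 22.2% and 12.8%, again with 0 of 3 members. At 1.5-fold Hoxd3 was lower than in WT in both Hoxa-null uteri, by 0.80 in the single and 0.83 in the compound mutant, where 13.2% and 12.9% of measured genes were as much lower. Among the vasa Hoxd3 was higher than in WT by 0.69 in the single Hoxa-null library and by 0.60 in its compound counterpart, and Hoxd4 by 0.84 and 0.90. That was 2 of 3 members in each library, beside 17.7% and 21.2% of measured genes.

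Some differences from WT had the same sign in every mutant. Hoxd3 was below WT in all 4 mutant uteri, from 0.29 below in the compound Hoxd-null to 0.83 below in the compound Hoxa-null, as 14.9% of measured genes were. Hoxd3 and Hoxd4 were above WT in all 4 mutant vasa, Hoxd3 by 0.31 to 0.69 and Hoxd4 by 0.34 to 0.90, as 18.3% were. Hoxd3 did both, as did 2.83% of genes measured in both sets. All these differences from WT share the 1 WT library of the tissue. All but those of the Hoxa-null uterus also cross lanes. Hoxd8 was on different sides of WT in different mutants of each tissue.

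Adding 1 mutant copy of the other cluster moved the members less than 2-fold. In the uterus the compound Hoxd-null minus the Hoxd-null library gave -0.46 for Hoxd8, 0.24 for Hoxd3 and 0.57 for Hoxd4, and 9.53% of measured genes were 2-fold apart. The compound Hoxa-null minus the Hoxa-null library gave -0.23, -0.035 and 0.16, with 11.3% of genes 2-fold apart. In the vas deferens these differences were -0.10, 0.039 and -0.029 for the added Hoxa copy and -0.28, -0.091 and 0.058 for the added Hoxd copy, beside 11.6% and 9.26% of genes 2-fold apart. The 3 members moved in different directions in the Hoxd-null uteri and differed by 0.28 at most from the single mutant in the vasa. The single and compound Hoxa-null uteri also differed in lane, and the single and compound Hoxd-null vasa in run.

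Between the segments of the normal tract none of Hoxd8, Hoxd3 and Hoxd4 was 2-fold apart. The oviduct was 0.16 below the WT uterus for Hoxd8, 0.17 below for Hoxd3 and 0.27 below for Hoxd4, with 0 of 3 members 2-fold apart beside 28.1% of measured genes. For Hoxd9, Hoxd10 and Hoxd11 it was 2.22, 3.44 and 4.17 log2 units below. The epididymis was 0.033 above the WT vas deferens for Hoxd8, 0.59 above for Hoxd3 and 0.13 above for Hoxd4, again 0 of 3 at 2-fold beside 28.8% of genes. Hoxd3 passed 1.5-fold, as 23.5% of genes did upward. Of the block in the epididymis, Hoxd9 was 0.52 above the WT vas deferens and Hoxd10 differed by -0.51, both less than Hoxd3. With the mean of all 5 uterus or vas deferens libraries as the reference, the oviduct was above it by 0.32 for Hoxd3, and the epididymis differed by 0.20 for Hoxd3 and -0.36 for Hoxd4. Going outward from the block on its other side, Hoxd11, Hoxd12 and Hoxd13 were 1.69, 3.41 and 5.86 lower in the epididymis than in the WT vas deferens. Against the mean of the 5 vas deferens libraries these differences were -0.49, -2.96 and -5.29, and that of Hoxd9 was 0.95, so that Hoxd11 was no longer 2-fold apart. 1700109F18Rik, which starts between the starts of Hoxd8 and Hoxd3, went the other way, 2.39 higher in the oviduct and 1.21 higher in the epididymis.

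**Figure D4:**
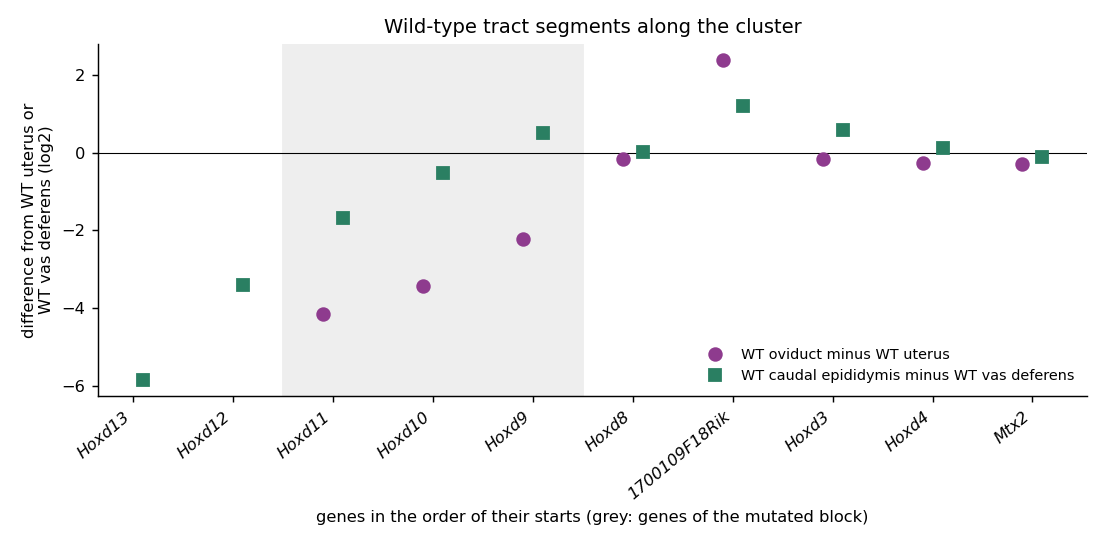
Log2 difference of the WT oviduct from the WT uterus and of the WT caudal epididymis from the WT vas deferens, for the measured genes of the region in the order of their starts, 1 library per tissue. The differences run from -5.86 at Hoxd13 to values near 0 at Hoxd8, Hoxd4 and Mtx2, with 1700109F18Rik above 0 in both.

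The members were compared with their paralogs, the genes of the same group in the other clusters. In the uterus the group 8 genes Hoxc8 and Hoxb8 had the Hoxd-null pair lower by 2.59 and 0.46 without overlap, where Hoxd8 had it higher by 0.60. Hoxa3 was lower by 0.84 and Hoxb3 showed 0.021 with overlap, beside 0.40 higher for Hoxd3. Of group 4, Hoxa4 was lower by 1.25 and Hoxc4 by 1.29 without overlap, and Hoxb4 by 0.62 with overlap, while Hoxd4 showed -0.043. Hoxa4 rested on 5 to 46.1 reads and Hoxc4 on 17.2 to 633, so that their log2 values carry more counting error at the low end. Among the vasa Hoxa3 was lower by 0.77 without overlap and Hoxb3 higher by 0.37. Hoxc8, Hoxa4, Hoxb4 and Hoxc4 overlapped there, and Hoxb8 was lower by 0.085. Of group 1, Hoxb1 was not measured in either set.

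**Figure D5:**
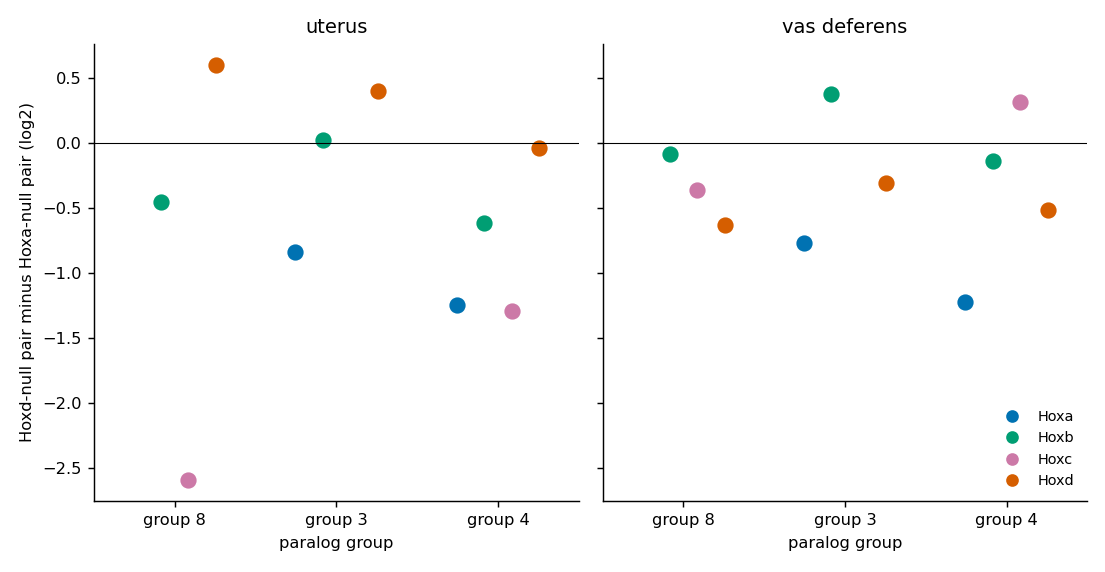
Difference of the Hoxd-null pair from the Hoxa-null pair in log2 units for the measured genes of paralog groups 8, 3 and 4, in the uterus and the vas deferens. In the uterus the Hoxa and Hoxc paralogs lie below 0 while Hoxd8 and Hoxd3 lie above it.

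Over whole lists, the anterior Hoxa genes Hoxa2 to Hoxa7 had a median of -1.07 in the uterus, with the Hoxd-null pair wholly lower for 5 of 6 and wholly higher for 0. The largest difference of these 6 was -2.33, at Hoxa6. All 4 anterior Hoxc genes were lower without overlap, with a median of -1.55. Of 7 measured anterior Hoxb genes, 4 were lower without overlap and 0 higher, with a median of -0.46 and the largest difference, -0.65, at Hoxb6. The vas deferens gave medians of -0.21 for Hoxa, 0.21 for Hoxc and 0.091 for Hoxb. There 1 of 5 Hoxa genes was wholly lower, 0 of 4 Hoxc genes was wholly higher or lower, and 2 of 7 Hoxb genes were wholly higher and 1 wholly lower. No gene measured in these 3 lists had the Hoxd-null pair wholly higher in the uterus, as Hoxd8 and Hoxd3 had. Against WT the uterine Hoxa medians were 0.63 (Hoxd-null), 1.24 (compound Hoxd-null), 1.91 (Hoxa-null) and 2.35 (compound Hoxa-null). In that order those of Hoxc were 0.35, 1.62, 2.59 and 3.15, and those of Hoxb -0.72, -0.25, -0.29 and 0.064. The Hoxa and Hoxc medians thus lay above WT in both pairs, and further above it in the Hoxa-null pair.

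Retinoic acid genes were counted because Hoxd4 and other anterior Hox genes are known targets of this vitamin A derivative. In the uterus 4 of 10 had the Hoxd-null pair wholly higher and 1 wholly lower, beside 20.2% and 21.2% of all measured genes. Their median was 0.22. The retinol transporter Stra6 was 2.28 higher, Aldh1a2, whose enzyme makes retinoic acid, 1.71 and its relative Aldh1a1 0.67 higher, and the binding protein gene Crabp2 was 2.04 lower. In the vas deferens 8 of 9 measured genes were wholly lower and 1 wholly higher, beside 26.6% and 26.7% of all measured genes. Their median was -0.75. Stra6 was 1.52 lower there, Crabp2 1.35, the retinol dehydrogenase gene Rdh10 0.81 and Cyp26b1, which degrades retinoic acid, 0.78.

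Regulators of Hox chromatin and the genes around the cluster differed less. Beside the counts that follow, 20.2% of all measured genes were wholly higher and 21.2% wholly lower in the uterus. For the vas deferens these shares were 26.7% and 26.6%. Of 13 measured Polycomb and Trithorax genes, 2 were wholly higher and 1 wholly lower in the Hoxd-null uteri, with a median of 0.00059. Ezh2, the histone methyltransferase of Polycomb complex 2, was 0.86 higher and Cbx2 0.75 higher, and Cbx7 was 0.56 lower. For the vas deferens 4 were wholly higher and 2 wholly lower, with a median of 0.11, and Cbx2 was 0.73 lower. Of 7 measured genes in the landscapes flanking the cluster, 1 was wholly higher and 1 wholly lower in the uterus, with a median of -0.022. The vas deferens had 2 wholly higher and 2 wholly lower, with a median of -0.063. Chn1, a gene on the posterior side that encodes a GTPase-activating protein for Rac, differed most in the vas deferens, 0.75 higher.

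The libraries contrasted also differed in the markers of cell types, and the part of these differences in the members' values was not tested. All 5 stratified epithelium markers, Krt5, Krt14, Krt15, Dsg3 and Trp63, were wholly lower in the Hoxd-null pair of the uterus, with a median of -3.61, and of the vas deferens, with a median of -0.93. Among the uteri the median log2 value of that list was 3.41 for Hoxa-null and 2.99 for compound Hoxa-null, against -1.62 for WT, -1.52 for Hoxd-null and 0.68 for compound Hoxd-null. Smooth muscle markers had medians of -0.41 in the uterus, with 3 of 6 wholly lower, and 0.79 in the vas deferens, with 5 of 6 wholly higher. Mesothelium markers had medians of -0.88 and 0.89, with 4 of 5 wholly lower in the uterus and 4 of 5 wholly higher in the vas deferens. The other 1 in the uterus, Wt1, was wholly higher, by 0.22. All 4 leukocyte markers were wholly higher in the Hoxd-null uteri, with a median of 1.07. Of the epithelium markers, 3 of 6 were wholly lower in the vas deferens, with a median of -0.56, and 1 of 6 was wholly higher in the uterus, with a median of 0.040. Adipocyte markers had medians of -1.01 in the uterus, where 0 of 4 was wholly higher or lower, and -1.19 in the vas deferens, where 1 of 4 was wholly lower. Their median difference from WT was above 0 in all 4 mutant vasa, as were those of Hoxd3 and Hoxd4: 2.23 in the Hoxa-null, 0.20 in the Hoxd-null, 2.81 in the compound Hoxa-null and 2.63 in the compound Hoxd-null library. The vas deferens and epididymis markers had a median of -1.37 in the vas deferens, with 3 of 5 wholly lower. Their medians also lay above WT in all 4 mutant vasa, by 1.78, 0.53, 1.61 and 0.73 in that order. One of them, Adam7, exceeded its WT value by 3.18 in the single Hoxa-null library and by 3.22 in its compound counterpart. The fibroblast medians were near 0, at -0.0067 in the uterus and 0.14 in the vas deferens.

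Across the 12 libraries, each gene centred within its set, Hoxd8 and Hoxd3 had a Pearson r of 0.43, Hoxd3 and Hoxd4 of 0.50 and Hoxd8 and Hoxd4 of 0.15, as a description. Hoxd9 had an r of 0.55 with Hoxd8, -0.0041 with Hoxd3 and 0.11 with Hoxd4. Among 4389 genes spanning at least 2-fold in each set, the most alike to Hoxd8 were Asb5 (0.84), Ube2t (0.84), Adssl1 (0.82), Apoc2 (0.81) and H2-Q10 (0.79). Hoxd3 was most like Khdc1c (0.91), Igsf11 (0.87), Ttpa (0.85), Slc16a10 (0.85) and Ccdc18 (0.85). Hoxd4 was most like Abca6 (0.88), Ifi27l2b (0.83), Zfp42 (0.83), Pfkfb3 (0.80) and Timd2 (0.79). An r of 0.8 or more was reached by 4 genes for Hoxd8, 12 for Hoxd3 and 4 for Hoxd4, and no gene was named for more than 1 of the 3. The 12 points share the centring of their set, and the uterine or vasal libraries share a tissue.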

How the data were processed

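Total RNA extracted with the Qiagen RNeasy Mini kit was made into Illumina TruSeq libraries, per the labels. TopHat and the mm9 build were used, per the submitters' processing notes; which counting tool, annotation and normalisation followed is not given in the sources used here. The authors deposited log2 values, whose spacing showed read counts scaled by 1 factor per library, raised to at least 1, put on the log2 scale and centred on each gene's median over its set of 6 libraries. Counts could be recovered only for genes with few reads.

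Each library's median over measured genes was subtracted from the deposited values, a shift of at most 0.0015 in female and 0.0067 in male libraries. Genes with 1 value in all libraries (12595 female, 12301 male) were left out. A gene was measured where a library reached 20 normalised reads or its level lay too high to be read. Pairs of libraries counted as not overlapping where more than 0.02 apart. Members and lists were chosen with earlier results of these data known. Named were the members, their neighbours, paralogs, up to 4 genes of a list with the largest pair difference, and the 5 genes most like each member. Hoxd11 and Hoxd10 are named as mutated genes; Gm38462 and Haglr, from the annotation, have no values. Some genes are not reported here and were left out of the lists. With 1 library per group no test was made. The reading of levels was tested on simulated data. Python 3.11.15, numpy 2.4.6, pandas 2.3.3, scipy 1.17.1 and matplotlib 3.10.9 were used. Alternatives left out single libraries, kept to 1 lane, changed the reference, fold or minimum, used the values as deposited, or added Hoxd1, the last chosen after seeing the data.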

Additional observations from a re-analysis of the deposited data

Results flagged for a closer look

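In 3 cases the libraries of the uterus moved one way and those of the vas deferens the other; with 1 library per group none of these differences between tissues was tested. The difference of the Hoxd-null pair from the Hoxa-null pair was 1.23 log2 units larger in the uterus than in the vas deferens for Hoxd8 and 0.71 larger for Hoxd3, with pairs that did not overlap in either tissue. For Hoxd3 the mean of the 4 mutants minus WT was -0.61 in the uterus and 0.49 in the vas deferens, a difference of -1.10 between tissues, with all 4 mutants on 1 side of WT in each. The last case rests on 1 WT library per tissue.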

How the results depend on the processing

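No paired analysis was possible because each tissue and genotype has 1 library. Of the values over the 3 members, 39 were classed as unchanged under the alternatives, 7 as moved and 2 as reversed. The cause was not tested. Unchanged allows some movement: the uterine count of non-overlapping members was 3 in place of 2 without the Hoxd-null uterus. The epididymis median was 0.053 in place of 0.13 with the mean of the 5 vas deferens libraries as reference. The values within lane 2 repeat those without the Hoxa-null uterus and without the compound Hoxd-null vas deferens. The median difference of the Hoxd-null from the Hoxa-null pair ran from 0.28 to 0.42 in the uterus and from -0.53 to -0.49 in the vas deferens when single libraries were left out. It reversed to -0.22 and 0.33 with WT in place of the Hoxa-null pair, and was 0.20 in the uterus with Hoxd1. With WT as reference, 0 members in the uterus and 1 in the vas deferens stayed wholly on the side of the main contrast. Hoxd3 lay wholly below WT in the uterus, and Hoxd3 and Hoxd4 lay wholly above it in the vas deferens. At 1.5-fold, 2 values in the uterus and 4 in the vas deferens differed from WT, and without a minimum 2 in the vas deferens passed 2-fold, both of Hoxd1. Hoxd4 in the uterus was -0.33 without the compound Hoxd-null library and reversed to 0.24 without the Hoxd-null and 0.036 without the compound Hoxa-null library. Against WT, Hoxd3 reversed to -0.41 in the uterus and 0.33 in the vas deferens, and Hoxd4 to 0.36 in the vas deferens. With the mean of the 5 uterus or vas deferens libraries as reference, the oviduct reversed to 0.32 for Hoxd3, and the epididymis to -0.36 for Hoxd4 and 0.042 for Mtx2. Of the values of single genes, 8 reversed, as given, 24 moved and 28 were classed as unchanged. A pseudocount of 5 normalised reads was not run, since the level of the measured members could not be read.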
